A study of Mus musculus with 8 samples.

Results

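The genes described here are 10 that all lung epithelium shares: Cdh1, Epcam, Krt8, Krt18, Cldn6, Cldn4, Esrp1, Grhl2, Elf3 and Spint2. They were taken by symbol, and all 10 were found among the 55401 genes of the deposited table and passed the low-count filter, which left 15788 genes. The data are RNA sequencing of whole embryonic mouse lung at E13.5, with 4 libraries labelled cre control and 4 labelled Tbx4tetOcre and MyrfE6 mutant. Tbx4tetOcre is a Cre transgene combination named for Tbx4, a gene of the lung mesenchyme and mesothelium, and MyrfE6 is the allele of Myrf, which encodes a membrane-bound transcription factor. The labels do not explain the allele and do not give strain, sex, embryos per library or litter. The p-values therefore reflect the spread among these 8 libraries, which may be technical in part.

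An epithelium is a sheet of cells held together at their sides. E-cadherin joins neighbouring cells at adherens junctions, claudins seal the space between them at tight junctions, and keratins form the filaments that brace the sheet. At this stage the lung epithelium is a branching tube inside mesenchyme, and the mesothelium covers the organ from outside. The 10 genes are used as a gauge of the epithelial share of each library. Mesothelium also makes keratins 8 and 18, so those genes do not mark the branching tube alone. In bulk tissue, fewer epithelial cells and less RNA per epithelial cell cannot be told apart.

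Sequence upstream of the genes is shown because the E-box CACCTG, whose reverse complement is CAGGTG, is the element through which Snai and Zeb factors are known to repress E-cadherin and other epithelial genes; many other helix-loop-helix factors recognise the same letters. Promoters from RefSeq (GRCm38.p6) are described for 6 of the 10 genes: Krt18, Cldn6, Cldn4, Elf3, Epcam and Spint2. The promoter set used had no entry for Cdh1, so the E-cadherin promoter itself was not examined. In the 250 bases before the start site, CACCTG was found on either strand in 6 of these 6 promoters, against 5657 of 32851 promoters in the whole RefSeq table (17.2%) and 16.0% of the 14506 promoters that belong to genes tested here. The matches are given below with up to 12 bases on each side, 5′ to 3′ on the strand of the gene, with the motif in capitals. Each is followed by the distance of its first base from the start site.
Krt18, chr15:102027990-102028019 on the plus strand, 214 bases upstream: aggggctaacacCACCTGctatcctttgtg
Cldn6, chr17:23679260-23679289 on the plus strand, 93 bases upstream: gggaaacgcacgCAGGTGgctatcgccgca
Cldn4, chr5:134946935-134946960 on the minus strand, 14 bases upstream: ctttaactgcagCACCTGtggccgcc
Elf3, chr1:135258595-135258624 on the minus strand, 140 bases upstream: gaatatgcaaatCACCTGggacagggagcc
Epcam, chr17:87635780-87635809 on the plus strand, 187 bases upstream: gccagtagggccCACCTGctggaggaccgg
Epcam, chr17:87635948-87635977 on the plus strand, 19 bases upstream: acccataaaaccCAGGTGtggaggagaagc
Spint2, chr7:29282034-29282063 on the minus strand, 74 bases upstream: cgggggcggtgcCAGGTGcaggccgcagag
Spint2, chr7:29282015-29282044 on the minus strand, 55 bases upstream: aggccgcagagcCAGGTGcggggccctccg
Spint2, chr7:29281978-29281998 on the minus strand, 9 bases upstream: gccccgccccgcCAGGTGcgc

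Epcam held 2 matches and Spint2 held 3, while the other 4 promoters held 1 each. That of Cldn6 lies inside the span of the gene in the deposited table, which begins further upstream than the RefSeq start. Of 52 promoters that matched 35 of 61 wider epithelial genes, 20 held CACCTG (38.5%). For lung epithelial identity genes it was 2 of 9 promoters, for lung mesenchyme 0 of 7, for mesothelium 1 of 7 and for endothelium 2 of 10. By list, the wider set held it in 10 of 23 tight junction and polarity, 5 of 9 trafficking and 2 of 3 keratin promoters. Among related factors it was in 2 of 9, among proteases and inhibitors in 1 of 4, and among adherens and desmosome genes in 0 of 4. The second motif searched, AACCNGTT of the grainyhead-like factors, was in 0 of the 6 promoters and in 1.79% of all, so no match of the 2 motifs overlapped. It was found in 5 of the 52 wider epithelial promoters, which belong to Cgn, Muc1, Prom1 and Rab25. Outside the epithelial lists it was in 1 of 7 lung mesenchyme, 1 of 10 endothelium and 0 of 7 mesothelium promoters. For lung epithelial identity genes it was 0 of 9. A match says only that these letters are present, and binding was not measured.

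**Figure D1:**
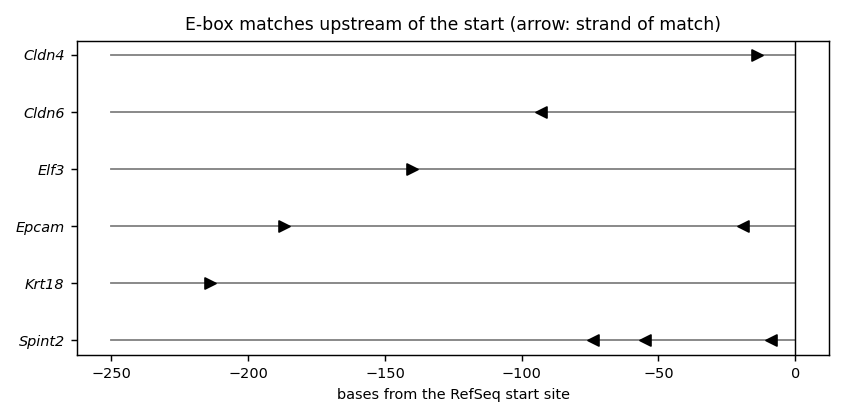
Positions of CACCTG matches in the 250 bases before the RefSeq start site of 6 genes; the horizontal axis is the distance from the start site in bases, and the arrow gives the strand of the match relative to the gene. Every line carries at least 1 arrow, from 9 bases (Spint2) to 214 bases (Krt18) upstream.

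Library totals ranged from 17799899 to 48679134 counts, with mutant replicate 2 the deepest. Myrf was lower in every mutant library, at 84.4 to 92.4 CPM (read pairs per 1000000 counted in a library, scaled by TMM, trimmed means of M-values) against 107 to 120.5 CPM in controls. Its log2 fold change was -0.37, with SE 0.044 and, by edgeR's quasi-likelihood test, adjusted p = 0.000211. The libraries also differed in sex-linked transcripts. Control replicates 2 and 3 had 0 and 0.0562 CPM of 4 Y-linked genes, mutant replicates 1 and 2 had 0.596 and 0.37 CPM of Xist, and the other 4 libraries, 2 in each group, held both. Across all genes tested 1.49% passed the test at an adjusted p below 0.05 in either direction, with 0.564% higher and 0.931% lower in the mutant.

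The pan-epithelial genes were slightly more abundant in the mutant libraries, and no single gene passed the test. Every one of the 10 had a positive log2 fold change, from 0.03 to 0.18, and their median was 0.11 (1.08-fold), where the median over all 15788 genes was 0.00 and 50% of genes were positive. In edgeR 0 of the 10 passed over all genes tested and 6 had an unadjusted p below 0.05, a level that 5.89% of all genes reached as higher in the mutant. DESeq2 and limma-voom also passed 0. The count with an unadjusted p below 0.05 depended on the setting. In edgeR it was 2 with both libraries numbered 4 left out and 7 without mutant replicate 1. Summed over the 10 genes, the level was 912, 933, 925 and 917 CPM in control replicates 1 to 4 and 959, 986, 975 and 992 CPM in mutant replicates 1 to 4. Every mutant library thus lay above every control, with means of 922 ± 9.43 and 978 ± 14.5 CPM (SD, n = 4), a difference of 6.11%. The sum stayed apart between the groups when any 1 gene was left out, with differences of 5.76% to 7.1%. In mutant replicates 2 and 4 all 10 genes lay above their control mean, in replicate 3 it was 9 and in replicate 1 it was 8. In control replicates 1 to 4, which set that mean, it was 4, 5, 5 and 5.

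**Figure D2:**
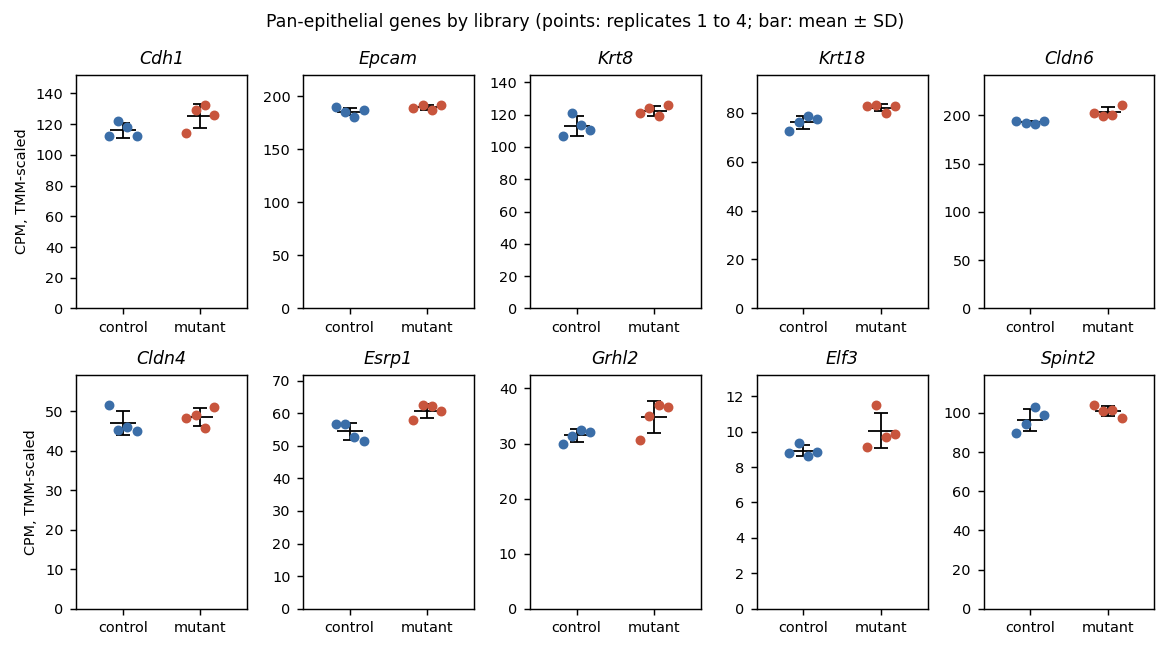
Level of each gene in each library in TMM-scaled CPM (vertical axes from 0); points are libraries, in replicate order within a group, and the black bars give mean ± SD over 4 libraries. The mutant mean sits above the control mean in each panel, and the groups separate fully for Krt18, Cldn6 and Esrp1.

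Of the adhesion molecules, Cdh1 encodes E-cadherin, the core of the adherens junction. Cdh1 (ENSMUSG00000000303.12, chromosome 8, 106603351 to 106670246, plus strand) measured 112, 122, 118 and 112 CPM in control replicates 1 to 4 and 114.5, 129.5, 132 and 126 CPM in mutant replicates 1 to 4. Mutant replicate 1 lay within the control range and the other 3 above it. The log2 fold change was 0.11 (SE 0.0449, 95% interval 0.02 to 0.21), with an adjusted p of 0.251 in edgeR. Epcam encodes an adhesion protein found on nearly all simple epithelia and is the gene most used to sort lung epithelial cells. Epcam (ENSMUSG00000045394.9, chromosome 17, 87635979 to 87651129, plus strand) measured 189, 185, 181 and 187 CPM in controls and 188, 192, 187 and 191 CPM in mutants. The groups overlapped, and its log2 fold change of 0.03 (SE 0.0323) was the smallest of the 10, with a 95% interval of -0.04 to 0.10.

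Keratins 8 and 18 pair with each other into the filaments of simple epithelia, and their genes lie close together on chromosome 15. Krt8 (101996698 to 102004482, minus strand) measured 107, 121, 113 and 110.4 CPM in controls and 121, 124, 119 and 126 CPM in mutants. Control replicate 2 lay above 2 of the 4 mutants, so the groups overlapped. Krt18 (102028180 to 102032027, plus strand) measured 72.3, 76.1, 78.4 and 77.2 CPM in controls and 82.6, 83.1, 79.9 and 82.6 CPM in mutants, with every mutant above every control. Both genes had a similar difference, at 0.12 (SE 0.04, adjusted p = 0.165, edgeR) for Krt8 and 0.11 (SE 0.0389, adjusted p = 0.181, edgeR) for Krt18. Per kilobase of exon, Krt8 stood at 1.05 to 1.17 times Krt18 in the 8 libraries, and this ratio was 1.09 ± 0.0535 in control and 1.096 ± 0.0182 in mutant libraries (SD, n = 4). The table also lists Krt8-ps, a processed pseudogene, and reads that fit both copies would not have been counted.

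Of the claudins, Cldn6 is known as an embryonic claudin and Cldn4 as one of tight epithelia. Cldn6 (chromosome 17, 23679249 to 23682446, plus strand) measured 194.5, 192, 191 and 194 CPM in controls and 203, 199, 201 and 211 CPM in mutants. The controls spanned only a few CPM and all mutants lay above them, yet the difference was small, at 0.08 on the log2 scale (SE 0.0326, adjusted p = 0.303, edgeR). Cldn4 (chromosome 5, 134945119 to 134946934, minus strand) measured 51.4, 45.3, 46.0 and 44.8 CPM in controls and 48.3, 49.0, 45.7 and 50.9 CPM in mutants. Control replicate 1 was the highest of all 8, no mutant lay above it, and the interval of the log2 fold change ran from -0.06 to 0.16.

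The 3 regulators had the largest log2 fold changes of the 10. Esrp1 is a splicing factor that sets the epithelial forms of many transcripts, among them the epithelial form of the FGF receptor Fgfr2. Esrp1 (chromosome 4, 11331933 to 11386783, minus strand) measured 56.7, 56.8, 52.8 and 51.5 CPM in controls and 57.8, 62.4, 62.3 and 60.7 CPM in mutants, with no overlap. Its log2 fold change was 0.16 (SE 0.0463, 95% interval 0.06 to 0.26), and its adjusted p of 0.0911 in edgeR was the smallest of the 10. Grhl2 is a grainyhead-like factor that sustains Cdh1 and claudin expression. Grhl2 (chromosome 15, 37233036 to 37363569, plus strand) measured 29.8, 31.4, 32.5 and 32.2 CPM in controls and 30.6, 35.0, 36.9 and 36.6 CPM in mutants. Mutant replicate 1 again lay inside the control range, and the log2 fold change was 0.14 (SE 0.0617, adjusted p = 0.306, edgeR). Elf3 is an ETS factor of epithelia. Elf3 (chromosome 1, 135253575 to 135258568, minus strand) was the lowest of the 10 in CPM, at 8.82, 9.36, 8.64 and 8.85 CPM in controls and 9.15, 11.5, 9.71 and 9.85 CPM in mutants. It had the largest log2 fold change, 0.18, and the widest error (SE 0.091), with an interval from -0.01 to 0.37 and 153 counts in its shallowest library.

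Spint2 encodes a membrane inhibitor of serine proteases such as matriptase and prostasin. Spint2 (chromosome 7, 29256323 to 29281912, minus strand) measured 89.6, 94.5, 102.9 and 98.8 CPM in controls and 103.9, 100.8, 102 and 97.4 CPM in mutants. Control replicate 3 exceeded 3 of the 4 mutants, and the log2 fold change was 0.07 (SE 0.043, adjusted p = 0.536, edgeR). Across the 10 genes, the 95% intervals of 6 lay above 0 and those of Epcam, Cldn4, Elf3 and Spint2 included it. No upper bound exceeded 1.295-fold, which was that of Elf3. The groups did not overlap for 3 of the 10 genes, Krt18, Cldn6 and Esrp1, where 3.31% of all genes tested lay apart as higher in the mutant.

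**Figure D3:**
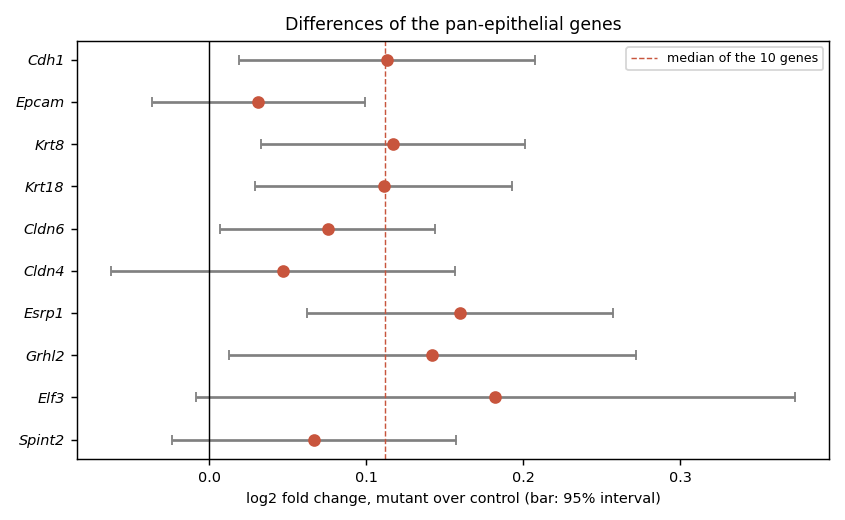
Log2 fold change of each gene, mutant over control, with its 95% interval from the edgeR fit; the solid line is 0 and the dashed line the median of the 10 genes. All 10 points lie right of 0, and 4 intervals include it.

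Per kilobase of exon, the structural genes stood far above the regulators. The length counts all annotated exons of a gene, so comparisons between genes depend on the annotation. The SD over libraries does not cover that error. In control libraries Cldn6 had the highest level, 112 ± 0.897 CPM per kb, followed by Epcam (84.5 ± 1.69), Krt8 (57.7 ± 3.07) and Krt18 (52.9 ± 1.83). Cldn4 and Cdh1, at 25.8 ± 1.69 and 25.4 ± 1.06 CPM per kb, did not differ beyond their spread, and Cldn4 was above Cdh1 in 4 of 8 libraries. Spint2 stood at 21.2 ± 1.26, Esrp1 at 8.63 ± 0.43, Elf3 at 4.02 ± 0.139 and Grhl2 at 3.65 ± 0.138 CPM per kb (SD, n = 4). All neighbours in this order other than Cldn4 and Cdh1 kept separate ranges in control libraries, and in mutant libraries Elf3 and Grhl2 overlapped as well. The highest level was 30.7 times the lowest. Cldn6 stood at 3.99 to 4.64 times Cldn4 over the 8 libraries.

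**Figure D4:**
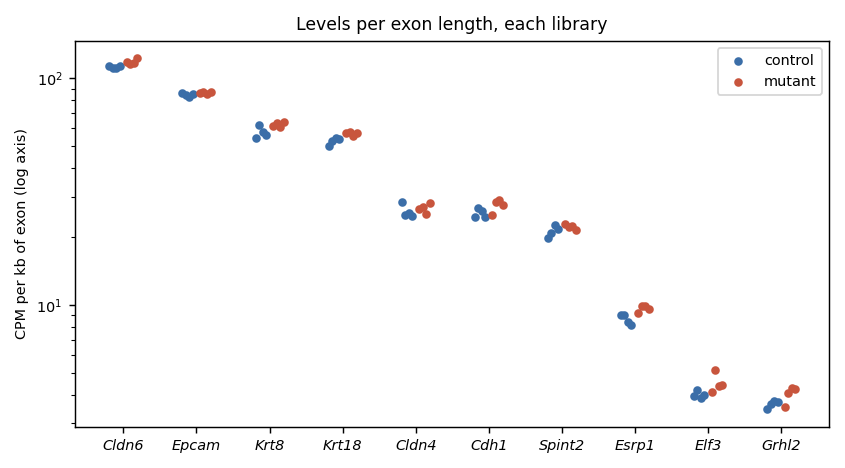
Level of each gene in CPM per kilobase of exon (log axis) in 4 control and 4 mutant libraries, ordered by the control mean. Cldn6 leads, Cldn4 and Cdh1 share a level, and the 3 regulators Esrp1, Elf3 and Grhl2 are lowest.

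The 10 genes varied together across the 8 libraries, but little of this was left inside the groups. Over the 45 pairs of genes, Pearson's r of log2 CPM had a median of 0.55 and was positive for 41 pairs. After each group was centred on its own mean, the median was 0.06, with 26 pairs positive and a range from -0.77 for Epcam with Spint2 to 0.77 for Cdh1 with Grhl2. These are descriptions over 8 libraries that share scaling and depth, and no test was made of them. The median shift of the 10 genes against the control mean was 0.06, 0.13, 0.08 and 0.12 on the log2 scale in mutant replicates 1 to 4, and -0.03 to 0.00 in controls. Controls lie near 0 because their own mean is the reference, and the mutant values restate the fold changes by library.

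A wider set of 61 epithelial genes, from 6 lists, showed differences of similar size. Of 59 tested, 0 passed in edgeR, 49 had positive log2 fold changes and the median was 0.13; 18 were higher and 1 lower at an unadjusted p below 0.05. With DESeq2 1 passed, the desmosome gene Dsp. In the adherens junction and desmosome list 9 of 12 were positive (median 0.08); the catenin Jup and the cadherin Cdh3 had log2 fold changes of 0.08 (SE 0.0491) and 0.00 (SE 0.044). In the tight junction and polarity list 13 of 17 were positive (median 0.10); F11r, a junctional adhesion molecule, had 0.09 (SE 0.0434) and the lung claudin Cldn18 0.16 (SE 0.0503). The summed level of this list was 537 to 551 CPM in controls and 561 to 590 CPM in mutants, without overlap. The sum of the membrane proteases and inhibitors was also apart, at 154 to 164 CPM in controls and 165.5 to 176 CPM in mutants. The adherens and desmosome sum overlapped (374 to 416.5 and 370 to 414 CPM). So did the sums of the keratin, related factor and trafficking lists. Of the other keratins 3 of 4 tested were positive (median 0.06), with 0.04 (SE 0.0449) for Krt7 and 0.08 (SE 0.0616) for Krt19.

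The related factors had the highest median of the 6 lists, 0.28, with 8 of 10 positive. The largest values of this list, 0.46 to 0.62, were those of scarce genes. These had control means of 0.903 to 2.8 CPM and SE of 0.17 to 0.29. Esrp2, the paralog of Esrp1, had a log2 fold change of 0.10 (SE 0.0488). All 6 tested proteases and inhibitors were positive (median 0.12), among them matriptase, encoded by St14, at 0.06 (SE 0.0476) and prostasin, encoded by Prss8, at 0.10 (SE 0.0533). All 10 trafficking genes were positive too (median 0.14), with 0.15 (SE 0.0915) for the membrane protein Mal2 and 0.09 (SE 0.044) for Prom1, prominin 1. Of 6 repressors of the epithelial programme, 1 fell: Snai2, a zinc finger repressor of Cdh1, stood at 198 ± 4.54 CPM in the controls and at 178 ± 5.06 CPM in the mutants (SD, n = 4), a log2 fold change of -0.15 with SE 0.0343 (edgeR, adjusted p = 0.0317). That call was lost in 8 of 18 alternatives, where its adjusted p ranged from 0.00451 to 0.411; among them were the fits without control replicate 1, 2 or 3 and without mutant replicate 1 or 3. The other 5 repressors did not pass, 3 with negative and 2 with positive values. The summed level of all 6, of which Snai2 was the largest part, was 490 to 518 CPM in controls. In mutants it was 462 to 477 CPM, without overlap.

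Genes that give the lung epithelium its identity were mixed. Of 10 tested, 5 had positive and 5 negative log2 fold changes (median -0.03). Their summed level overlapped between control (1077 to 1149 CPM) and mutant libraries (1048 to 1120 CPM). The largest part of this sum was Etv5, at 383 ± 7.67 CPM in controls and 339 ± 16.6 CPM in mutants (SD, n = 4). Within this list 2 genes rose, the airway factor Sox2 (0.53, SE 0.0823, adjusted p = 0.00282, edgeR) and the forkhead factor Foxa1 (0.26, SE 0.0423, adjusted p = 0.00417, edgeR). The distal tip factor Etv5 fell (-0.18, SE 0.0368, adjusted p = 0.021, edgeR). The call of Sox2 held in all 18 alternatives. That of Foxa1 was lost in 2, both on sex-linked transcripts, and that of Etv5 in 7, among them the fits without control replicate 1, 2 or 3 and without mutant replicate 1 or 3. The difference between this list and the 10 pan-epithelial genes was not tested.

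Markers of other cells stood beside these values as follows. Of 11 mesothelium genes 10 had negative log2 fold changes and 4 fell, among them Upk3b (-0.63, SE 0.0465), Gpm6a (-0.80, SE 0.1) and Wt1 (-0.70, SE 0.0898). The call of Gpm6a was lost in 1 of 18 alternatives, the fit of the 4 libraries that held Xist as well as Y-linked counts (edgeR, adjusted p = 0.114). Their summed level was 299 to 328 CPM in controls and 228 to 267 CPM in mutants. All 8 endothelial genes were positive and 1 rose, Emcn (0.19, SE 0.0469; the call was lost in 11 of 18 alternatives, 7 of them fits without 1 library), and their sum was also higher in every mutant library, at 958 to 1001 CPM against 891 to 953 CPM. Of 10 lung mesenchyme genes 4 were positive and 1 fell, Wnt2 (-0.33, SE 0.0559). The ratio of the summed pan-epithelial to the summed mesenchyme level was 0.153 ± 0.00927 in control and 0.152 ± 0.0113 in mutant libraries (SD, n = 4) and overlapped; most of that mesenchyme sum comes from the collagen genes Col3a1 and Col1a1. Of 8 macrophage and red blood cell genes 5 were positive and 1 fell, the macrophage receptor Mrc1 (-0.29, SE 0.0648; the call was lost in 9 of 18 alternatives, among them the fits without control replicate 1, 3 or 4 and mutant replicate 1 or 2), and their sum overlapped between the groups. The part of these shifts in the pan-epithelial values was not tested.

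Epithelium of neighbouring organs was scarce. The 8 markers of trachea, esophagus, stomach and thymus summed to 5.23 to 12.5 CPM in controls and 5.84 to 7.77 CPM in mutants. Foxe1 had 0 counts in every library, and Foxn1, Hnf4a, Pax9 and Krt13 were also too low to test. Of the 3 tested, Krt15 had a log2 fold change of -0.11 (SE 0.141) and Krt5 -0.74 (SE 1.1). Sex-linked transcripts were examined by separate fits. The summed level of 4 Y-linked genes averaged 37.3 CPM in controls and 102 CPM in mutants, scaled by total counts alone. This level overlapped between the groups but differed in part with genotype, so a covariate cannot fully separate it from genotype. With the Y-linked level (log2) as a covariate the median of the 10 genes was 0.153. In the 4 libraries that held Xist as well as Y-linked counts it was 0.138, a choice made after seeing the data. In both, 10 of 10 were positive and 0 passed, but Epcam and Cldn4 lay near 0. Their log2 fold changes were 0.00743 (SE 0.0407) and 0.00421 (SE 0.0658) with the covariate. In the 4 libraries they were 0.0108 (SE 0.0479) and 0.00805 (SE 0.0848).

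**Figure D5:**
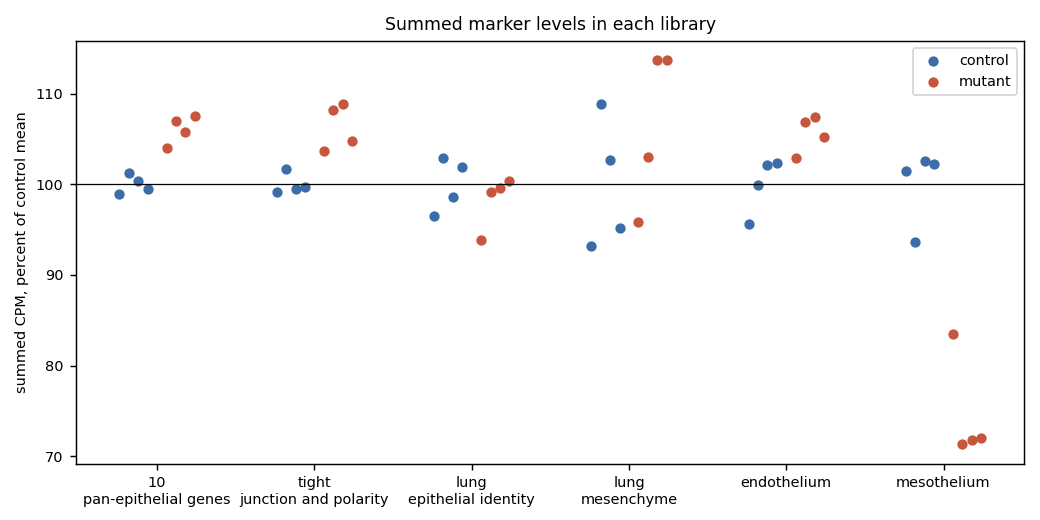
Summed CPM of 6 gene lists in each library, as percent of the control mean (vertical axis, not from 0; the horizontal line is 100%). The pan-epithelial, tight junction and endothelial sums lie higher in all 4 mutant libraries, the mesothelium sum lies lower, and the lung epithelial identity and mesenchyme sums overlap. Of the wider epithelial lists, only tight junction and polarity is drawn.

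The genes whose log2 CPM followed the mean pattern of the 10 most closely over the 8 libraries were Shroom3, Acat1, Aldh1a7, Rnf19b, Fam210b and Cgnl1, with Pearson's r from 0.98 to 0.95 among 11505 genes ranked. Shroom3 shapes the apical side of epithelial cells through actin and Cgnl1 is a component of the apical junction, and neither was on a list used here. Shroom3 measured 40.3, 42.9, 41.9 and 41.7 CPM in controls and 43.5, 46.6, 45.3 and 46.4 CPM in mutants, with the groups apart. Of these 6, Aldh1a7, an aldehyde dehydrogenase gene (0.39, SE 0.0529, adjusted p = 0.00175, edgeR), and Fam210b (0.42, SE 0.0639, adjusted p = 0.0046, edgeR) rose, and the other 4 did not pass. The call of Fam210b was lost in 1 of 18 alternatives, the Y-linked covariate (edgeR, adjusted p = 0.0578). The wider epithelial genes had a median r of 0.66 with this pattern and the endothelial genes a slightly higher one, 0.70. Of 45 wider epithelial genes among the 11505 ranked, 2 were in the top 100. The median r was -0.07 for the lung epithelial identity genes, -0.22 for lung mesenchyme, -0.89 for mesothelium and -0.01 for all ranked genes. The likeness includes the difference between the groups, so it is not independent of the fold changes.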

How the data were processed

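The authors deposited raw counts of read pairs per gene for 8 libraries. Per the file headers they were made with featureCounts 1.6.4, strand option 2, over exons of GENCODE M25, without counting reads that map to several places. STAR, DESeq2 and the build GRCm38 (mm10) are named in the submitters' processing notes. The deposited exon length (unit: other) served for CPM per kb.

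All 8 libraries entered 1 edgeR 4.0.16 fit (R 4.3.3): expression filter, TMM scaling, robust quasi-likelihood F test, two-sided, no covariate, Benjamini-Hochberg over 15788 genes, threshold 0.05. Alternatives used DESeq2 1.42.0 and limma-voom 3.58.1. SE is that of the log2 fold change; 95% intervals use the fit's degrees of freedom. A floor of 3 counts was 0.169 CPM in the shallowest library and covers counting error only. Symbols paired with 55141 of 55401 genes. Same-numbered libraries correlated at 0.0125 to 0.181 after centring each group, not over 0.1 in every pair. What the numbers mean is not known, and they were not used as pairs. No 2 libraries of a group were duplicates, their counts differing by 3.13 to 9.26 times the sampling variance.

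The 10 genes and all lists were chosen with earlier results of these data known. Named are the 10, up to 3 passing members of each other list (with none passing, the 2 most abundant), and the 6 genes of at least 5 CPM most like the pattern of the 10. The results for 1 listed gene and 1 promoter are not reported here. On simulated counts for 15788 genes, the mutant against control steps recovered 4% of 1.1-fold, 49.2% of 1.25-fold, 74.4% of 1.5-fold and 87.2% of 2-fold changes, and 8.36% of calls were false.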

Additional observations from a re-analysis of the deposited data

Results flagged for a closer look

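Among 22 groups of 4 libraries checked (the 10 genes and their sum, in each genotype), 1 held a library far from the others by Dixon's criterion, which chance meets in about 1 in 20 groups. It was Krt18 in mutant replicate 3, at 79.9 CPM beside 82.6 to 83.1 CPM in the other 3 mutants. The library still lay above all 4 controls.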

How the results depend on the processing

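All 10 genes kept a positive log2 fold change in all 18 alternatives, though some values lay near 0. The lowest were 0.00421 for Cldn4 and 0.00743 for Epcam, both with the Y-linked covariate. Of the 10 genes, 0 passed in 17 alternatives. With no low-count filter in edgeR 2 passed, Esrp1 (0.18, adjusted p = 0.0146) and Krt8 (0.13, adjusted p = 0.0476). Their adjusted p ranged over all alternatives from 0.0146 to 0.416 and from 0.0476 to 0.405. The median log2 fold change was 0.153 with the Y-linked covariate, 0.138 in the 4 libraries that held Xist as well as Y-linked counts, 0.0956 with both libraries numbered 4 left out (the last 2 chosen after seeing the data) and 0.0936 to 0.124 without each library in turn. The summed level differed by 5.75% to 7.1% under the settings it was computed for: TMM, RLE and total-count scaling, the sum per kilobase, and leaving out each gene. Among the wider epithelial genes, 9 passed with no filter, 1 with DESeq2, 2 with the Y-linked covariate, 3 with the replicate block, 2 with both libraries numbered 4 left out, and 0 to 3 without each library in turn. These calls were higher in the mutant except Ctnnd1, a catenin, which passed as lower with no filter, without control replicate 4, without mutant replicate 4 and without both (-0.255 to -0.162; named after its values were seen). Of all genes, 380 passed with DESeq2, 791 with no filter, 142 without robust estimation, 95 with the Y-linked covariate, 541 with the replicate block, 87 in the 4 libraries, 567 with both libraries numbered 4 left out and 96 to 479 without each library in turn, beside 236; control replicates 1, 2 and 3 and mutant replicates 2 and 4 each moved it by over 1.5 times. Control replicates 1, 2 and 3 correlated best with the mutant of the same number and control replicate 4 did not, and the block brought none of the 10 past the threshold. The cause of these shifts was not tested. Depth limits Elf3 most: 153 counts in its shallowest library.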
